A study of Caenorhabditis elegans with 32 samples.

Results

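A set of 90 transcripts of 84 genes was described here, out of 16422 transcripts in a table of mRNA levels in ageing Caenorhabditis elegans. They were chosen by the change of their own level with age, as the rows of that table whose gene had only a cosmid-style name (such as T13F3.6, given from the genomic clone and the gene's number on it) and whose level fell by 3 or more between day 2 and day 12 of adulthood on the log2(FPKM + 1) scale. FPKM is a fragment count scaled to transcript length and to library size. Of the 8015 cosmid-named rows and the 172 rows with a fall of that size, 90 met both conditions after 3 further rows were left out by the rule, and 71 of the 172 had a hyphenated name and 8 no name.

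The table that chose the set came from untreated animals, and the other 3 tables, which the rule did not use, hold the levels described below. All animals carried glp-1(e2141), an allele of a Notch receptor gene under which warm-grown worms form very little germline, and whole animals were collected at day 12 or day 2. The groups were glp-1(e2141) animals labelled as given met-1 RNA interference (RNAi) or L4440 (the usual empty vector of feeding RNAi), met-1(n4337); glp-1(e2141) animals (called met-1 mutants), their glp-1(e2141) controls, and the untreated glp-1(e2141) animals. Each group held 2 libraries at each age. The RNAi table gave 1 value per library, and the others 1 value per age for both libraries together, so that no spread can be computed from those. The labels do not say whether replicates were separate cultures, and p-values therefore measure the spread between these libraries only, which may be technical.

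An adult hermaphrodite worm consists mainly of intestine, cuticle-forming hypodermis, muscle, nerve cells and gonad. The intestine is the main site of digestion, fat storage and lysosomal breakdown, and makes secreted proteins that meet the bacterial food. Because glp-1 mutants hold little germline, a change in whole-animal mRNA in them comes largely from somatic cells. met-1 encodes a histone methyltransferase that acts on lysine 36 of histone H3, a mark found over transcribed genes.

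Many of the genes have received names since the files were made. By RefSeq (WBcel235), 76 transcripts were matched by accession and 13 by locus tag, C52D10.1 was not matched, and 20 of the genes carried a hyphenated symbol. Among these were the digestive or lysosomal peptidase genes ctsa-1.2 (F13D12.6), ctsa-3.1 (F32A5.3) and asp-13 (F28A12.4). Others encode mitochondrial enzymes or carriers, namely oatr-1 (C16A3.10, ornithine aminotransferase), mpc-1 (R07E5.13, pyruvate carrier) and dhgd-1 (F54D5.12, D-2-hydroxyglutarate dehydrogenase). Further examples are gpx-7 (R03G5.5, glutathione peroxidase), cest-10 (C42D4.2, carboxylesterase) and clik-1 (T25F10.6, a calponin-like protein of muscle). The other 64 genes are called by their cosmid names, and no role is given for them.

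In the untreated animals, whose values chose the set and are given as a description, the 90 transcripts had a median of 5.33 FPKM at day 12 (range 0 to 314.83) and 110 FPKM at day 2 (range 12.2 to 2752.19). The medians of all rows of that table were 6.5 FPKM at day 12 and 7.04 FPKM at day 2. The set thus lay far above the typical transcript in young animals and near it in old ones. A fall of the size required is possible only from a raised day 2 level, so the position at day 2 follows at least in part from the rule. The log2 change ran from −7.63 to −3.01 with a median of −3.62, and it was −4 or lower in 30 transcripts, −5 or lower in 10 and −6 or lower in 5. At day 12, 17 transcripts were below 1 FPKM, of which 3 were listed at 0. At day 2, 48 were at 100 FPKM or more. In the authors' deposited table, the q-value was below 0.05 in 83 of the 90 and not in 7. It compares the same values that chose the set, so this count is no separate support for the fall.

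The threshold cut through a continuous range of values. Just inside it were ZK228.3 with a log2 change of −3.006 (14.4 FPKM at day 12 and 123 FPKM at day 2), T05E7.1 with −3.007 (2.14 FPKM at day 12 and 24.3 FPKM at day 2) and D2092.4 with −3.019 (5.23 FPKM at day 12 and 49.6 FPKM at day 2). Just outside it were R193.2 with −2.987 (1.03 FPKM at day 12 and 15.1 FPKM at day 2), C41D11.3 with −2.987 (0 FPKM at day 12 and 6.93 FPKM at day 2) and C26B9.7 with −2.972 (0.222 FPKM at day 12 and 8.58 FPKM at day 2).

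The libraries of the RNAi table differed in depth, from a relative read number of 0.355 in the second L4440 day 12 library to 1.299, and held 14577 to 17234 transcripts at 1 FPKM or more. The level of met-1 went against the labels: it was 80.1 and 57.1 FPKM at day 12 in the libraries labelled met-1 RNAi, against 10.7 and 29.8 FPKM in L4440 libraries, and at day 2 13 and 27.5 FPKM against 7.80 and 5.03 FPKM. For the deletion mutant, it was 4.79 FPKM at day 12 and 6.67 FPKM at day 2, against 6.34 and 5.41 FPKM in controls. The files do not show which part of the gene the reads came from, so the mutant value does not check the allele.

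All 90 transcripts were listed in the other 3 tables, and 78 of them, from 76 genes, could be tested. A transcript was tested if it reached 1 FPKM in at least 2 of the 8 RNAi libraries and had the status OK in every pooled estimate, which 18572 transcripts met. Of the 12 that were not tested, 9 carried the status HIDATA (too many fragments at the locus for an estimate) and 3 were too low. The 9 were all on chromosome IV, so that 9 of its 25 members could not be followed beyond the untreated animals.

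The 9 were Y69A2AR.18, K08D12.6 (epic-2), 3 transcripts of C23H5.8, Y54G2A.45, F49F1.1 (drd-50, named for falling under dietary restriction), K03H6.2 (txt-4) and F49F1.7. In the untreated animals they reached from 0 to 49.5 FPKM at day 12 and from 38.3 to 1308.65 FPKM at day 2. They were listed at 0 in the 6 other RNAi libraries and in both pooled tables, and had values in the L4440 day 12 libraries alone, for instance 157.40 and 138.05 FPKM for Y69A2AR.18 and 20.1 and 30.8 FPKM for K08D12.6. In those libraries Y54G2A.45 had 11.9 and 13.1 FPKM, F49F1.7 25.5 and 23.6 FPKM, F49F1.1 8.21 and 8.77 FPKM, and K03H6.2 7.83 and 6.11 FPKM. C23H5.8 had 40 and 37.6 FPKM for NM_067762, 0 and 5.75 FPKM for NM_067763, and 0 in both for NM_001129285. A 0 beside a failed estimate is not a measurement, and no direction was read from these.

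The 3 low ones were transcripts of genes with other transcripts or with little signal. C24B9.3 NM_001028501 was listed at 0 in all 8 libraries, with 3.33 FPKM at day 12 and 110.49 FPKM at day 2 in the untreated animals, and the gene's other transcript was tested. F56A4.3 was at 0 in all but 1 library, a day 2 library labelled met-1 RNAi with 0.599 FPKM, against 2.76 FPKM at day 12 and 57.7 FPKM at day 2 in the untreated animals. F49E12.9 (drd-1) NM_001129140 was listed at 0 in all 8, with 3.40 FPKM at day 12 and 38.6 FPKM at day 2 in the untreated animals.

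The fall with age was present in the animals that had not chosen the set. In the libraries labelled met-1 RNAi 69 of the 78 tested transcripts fell and none rose, and in the L4440 libraries 71 fell and none rose (limma, Benjamini-Hochberg adjusted p below 0.05 over all 18572 tested). Among all tested transcripts, 12.3% fell and 8.35% rose in the libraries labelled met-1 RNAi, and 11.9% fell and 6.78% rose in the L4440 libraries. The median log2 change of the set, day 12 minus day 2, was −3.30 in the libraries labelled met-1 RNAi (−0.01 over all tested) and −3.65 in L4440 libraries (−0.07 over all tested). The changes were taken after the libraries were centred on one median, since as deposited the median transcript was higher at day 12 by 0.48 in the libraries labelled met-1 RNAi and by 0.46 in L4440 libraries on the log2 scale. Changes of low transcripts are understated on this scale.

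Both day 12 libraries lay below both day 2 libraries for 73 of the 78 in the libraries labelled met-1 RNAi, where 16.7% of all tested transcripts did so, and for 75 of the 78 in L4440 libraries, where 15.1% did. A call in both arms was made for 68 transcripts, which is 98.6% of the calls in the libraries labelled met-1 RNAi and 95.8% of those in the L4440 libraries. The same shares over all tested transcripts are not given here, so the overlap is not read as particular to the set. A further 6 were called in neither arm. The 63 tested transcripts with hyphenated names and the same fall in untreated animals gave 52 falls in each arm and no rise. Whether the named and the cosmid-named sets differ was not tested.

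**Figure D1:**
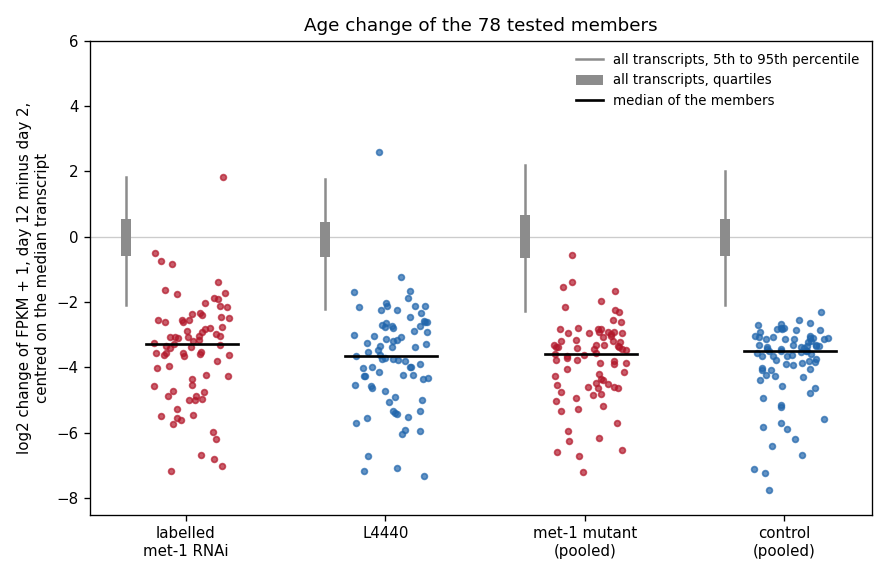
Log2 change of FPKM + 1, day 12 minus day 2, centred on the median transcript, of the 78 tested members (points) in the libraries labelled met-1 RNAi, the L4440 libraries, the met-1 mutants and their controls; black lines are the medians of the members, and grey bars are the quartiles and the 5th to 95th percentiles of all transcripts measured. The medians of the members, −3.30, −3.65, −3.58 and −3.51, lie below the 5th percentile of all transcripts in each of the 4 sets of animals, and C25A8.1 is the point above 0 in both RNAi arms.

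The summed FPKM of the 81 members with the status OK shows the size of the fall as a share of the mRNA measured. They added up to 1281 and 1501 FPKM at day 12, against 15167 and 14612 FPKM at day 2, in the libraries labelled met-1 RNAi. In L4440 libraries they added up to 1607 and 1760 FPKM at day 12, against 17019 and 17451 FPKM at day 2. The share of all FPKM was 0.0602% to 0.0723% in the 4 day 12 libraries and 0.88% to 1.02% in the 4 day 2 libraries, so that the ages did not overlap. In the pooled tables the sum was 1278 FPKM at day 12 and 19872 FPKM at day 2 in met-1 mutants, and 1734 FPKM at day 12 and 24884 FPKM at day 2 in controls. In bulk samples, fewer cells of a type and less RNA per cell cannot be told apart.

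Markers of tissues were followed in the same libraries. The summed level of 5 hypodermis markers was 226 to 252 FPKM in the 4 day 12 libraries and 2081 to 2419 FPKM in the 4 day 2 libraries, nearly all of it from col-19, an adult cuticle collagen gene, with 192.11 to 211.74 FPKM at day 12 and 2051.55 to 2385.24 FPKM at day 2. The next most abundant of the 5, elt-3, a transcription factor gene of the hypodermis, had 30.7 to 44 FPKM at day 12 and 22.8 to 36.7 FPKM at day 2, so that the list did not move as one. The 6 intestine markers summed to 1199.47 to 1579.88 FPKM at day 12 and 777.75 to 1109.88 FPKM at day 2. In each arm 5 of the 6 had both day 12 libraries above both day 2 libraries, such as pept-1, a gut peptide transporter gene, with 50.2 to 77.5 FPKM at day 12 and 13 to 16.9 FPKM at day 2. The exception was ges-1, a gut esterase gene, with 27.5 to 49.6 FPKM at day 12 and 122.10 to 201.45 FPKM at day 2. The marker levels given here are as deposited, before the libraries were centred. On that scale the median transcript was higher at day 12 by a log2 of 0.48 in the libraries labelled met-1 RNAi and 0.46 in L4440 libraries. The share of all transcripts higher at day 12 without overlap is not given here, so no rise of the intestine is read from the 5 of 6. In the centred fit, 7 transcripts of the intestine markers were tested, of which 1 fell and 1 rose in each arm. The 6 germline markers summed to 53.5 to 73.5 FPKM at day 12 and 35.3 to 41 FPKM at day 2. The part of these shifts in the fall of the set was not tested.

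All 3 peptidase genes named above fell in both arms, and ctsa-1.2 and asp-13 were among the 20 most abundant members. For ctsa-1.2 (F13D12.6), a serine carboxypeptidase related to cathepsin A, the libraries labelled met-1 RNAi had 28.6 and 39.2 FPKM at day 12, against 982.11 and 916.88 FPKM at day 2, and the L4440 libraries 54 and 66.1 FPKM, against 1145 and 1068 FPKM. No library of one age came near the other. Its log2 change was −5.27 ± 0.19 in the libraries labelled met-1 RNAi (± SE throughout; limma, Benjamini-Hochberg adjusted p = 2.78e-04) and −4.71 ± 0.19 in L4440 libraries (adjusted p = 3.01e-04). For asp-13 (F28A12.4), an aspartyl protease, the libraries labelled met-1 RNAi had 30.8 and 47.6 FPKM at day 12, against 658.20 and 488.65 FPKM at day 2, and the L4440 libraries 95.7 and 103.39 FPKM, against 859.21 and 740.40 FPKM. The ages again did not overlap, and the log2 changes were −4.34 ± 0.25 in the libraries labelled met-1 RNAi (limma, adjusted p = 6.14e-04) and −3.52 ± 0.25 in L4440 libraries (adjusted p = 0.00101). The related carboxypeptidase gene ctsa-3.1 (F32A5.3) was lower throughout, with 7.53 and 11.9 FPKM at day 12, against 28.1 and 25.4 FPKM at day 2, in the libraries labelled met-1 RNAi, and 8.62 and 6.77 FPKM, against 33.1 and 31.3 FPKM, in L4440 libraries. It fell, with log2 changes of −1.89 in the libraries labelled met-1 RNAi (limma, adjusted p = 0.00498) and −2.47 in L4440 libraries (adjusted p = 0.00244).

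The members mpc-1, oatr-1 and dhgd-1, given here for their roles in mitochondria, each passed the test in both arms. mpc-1 (R07E5.13), a subunit of the carrier that brings pyruvate into mitochondria, had 87.2 and 91.8 FPKM at day 12, against 547.56 and 423.18 FPKM at day 2, in the libraries labelled met-1 RNAi, and 98.6 and 109.18 FPKM, against 686.15 and 584.90 FPKM, in L4440 libraries. The ages were far apart in each arm, with log2 changes of −2.90 ± 0.16 in the libraries labelled met-1 RNAi (limma, adjusted p = 5.03e-04) and −3.13 ± 0.16 in L4440 libraries (adjusted p = 4.59e-04). oatr-1 (C16A3.10), which encodes the enzyme that links ornithine to proline and glutamate metabolism, had 50.7 and 138.35 FPKM at day 12, against 378.01 and 354.92 FPKM at day 2, in the libraries labelled met-1 RNAi, and 66.4 and 68.0 FPKM, against 363.58 and 420.28 FPKM, in L4440 libraries. The day 12 libraries labelled met-1 RNAi lay far apart, and the log2 changes were −2.60 ± 0.45 in the libraries labelled met-1 RNAi (limma, adjusted p = 0.0129) and −3.05 ± 0.45 in L4440 libraries (adjusted p = 0.00810). Without either one of the day 2 libraries labelled met-1 RNAi, the call of oatr-1 in that arm was lost (adjusted p = 0.0717 and 0.0660). dhgd-1 (F54D5.12), which oxidises D-2-hydroxyglutarate, had 22.3 and 24.9 FPKM at day 12, against 155.55 and 128.90 FPKM at day 2, in the libraries labelled met-1 RNAi, and 23.8 and 22.1 FPKM, against 179.83 and 164.74 FPKM, in L4440 libraries. It fell, with log2 changes of −3.03 ± 0.14 in the libraries labelled met-1 RNAi (limma, adjusted p = 4.12e-04) and −3.38 ± 0.14 in L4440 libraries (adjusted p = 3.01e-04).

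Other members with a symbol fell as well. gpx-7 (R03G5.5), a glutathione peroxidase, had 5.39 and 8.11 FPKM at day 12, against 33.5 and 25.2 FPKM at day 2, in the libraries labelled met-1 RNAi, and 9.30 and 8.58 FPKM, against 29.5 and 28.2 FPKM, in L4440 libraries, with log2 changes of −2.47 in the libraries labelled met-1 RNAi (limma, adjusted p = 0.00193) and −2.11 in L4440 libraries (adjusted p = 0.00341). cest-10 (C42D4.2), a carboxylesterase, had 1.72 and 1.22 FPKM at day 12, against 22.8 and 11.1 FPKM at day 2, in the libraries labelled met-1 RNAi, and 2.07 and 1.98 FPKM, against 20.8 and 8.20 FPKM, in L4440 libraries, with log2 changes of −3.28 in the libraries labelled met-1 RNAi (limma, adjusted p = 0.00752) and −2.75 in L4440 libraries (adjusted p = 0.0142). The ages did not overlap for either gene. The muscle gene clik-1 (T25F10.6) had 154.26 and 176.66 FPKM at day 12, against 518.46 and 498.54 FPKM at day 2, in the libraries labelled met-1 RNAi, and 146.62 and 149.16 FPKM, against 516.80 and 465.19 FPKM, in L4440 libraries. Its log2 changes, −2.11 ± 0.12 in the libraries labelled met-1 RNAi (limma, adjusted p = 6.14e-04) and −2.25 ± 0.12 in L4440 libraries (adjusted p = 5.22e-04), were with those of hrg-11.3 the smallest in size among the 20 most abundant members in both arms.

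Both genes named for a response to haem in RefSeq fell. hrg-11.3 (T25C12.3) had 38.9 and 68.7 FPKM at day 12, against 138.61 and 201.33 FPKM at day 2, in the libraries labelled met-1 RNAi, and 45.6 and 53.8 FPKM, against 146.58 and 164.34 FPKM, in L4440 libraries. Its log2 changes were −2.16 ± 0.33 in the libraries labelled met-1 RNAi (limma, adjusted p = 0.00810) and −2.15 ± 0.33 in L4440 libraries (adjusted p = 0.00870), and without the second L4440 day 2 library the call in L4440 was lost (adjusted p = 0.0512). hrg-11.2 (F28B4.3) had 7.12 and 15.6 FPKM at day 12, against 76.4 and 120.50 FPKM at day 2, in the libraries labelled met-1 RNAi, and 31.4 and 36.2 FPKM, against 98.1 and 97.6 FPKM, in L4440 libraries. It fell, with log2 changes of −3.55 in the libraries labelled met-1 RNAi (limma, adjusted p = 0.00302) and −2.04 in L4440 libraries (adjusted p = 0.0191). nssp-46 (Y43C5A.7) had 22.3 and 6.44 FPKM at day 12, against 434.58 and 486.25 FPKM at day 2, in the libraries labelled met-1 RNAi, and 13.8 and 22.7 FPKM, against 590.16 and 631.34 FPKM, in L4440 libraries, with log2 changes of −5.62 ± 0.53 in the libraries labelled met-1 RNAi (limma, adjusted p = 0.00178) and −5.56 ± 0.53 in L4440 libraries (adjusted p = 0.00208).

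Among the genes with a cosmid name only, the steepest falls left little RNA in old animals. R07E5.4 had 3.05 and 0.466 FPKM at day 12, against 248.32 and 253.43 FPKM at day 2, in the libraries labelled met-1 RNAi, and 1.11 and 1.31 FPKM, against 249.32 and 239.87 FPKM, in L4440 libraries. T13F3.6 had 8.66 and 4.39 FPKM at day 12, against 699.20 and 647.17 FPKM at day 2, in the libraries labelled met-1 RNAi, and 3.39 and 8.49 FPKM, against 690.04 and 613.13 FPKM, in L4440 libraries. The 4 young libraries lay close together for both genes. R07E5.4 fell, with log2 changes of −7.18 ± 0.44 in the libraries labelled met-1 RNAi (limma, adjusted p = 6.78e-04) and −7.32 ± 0.44 in L4440 libraries (adjusted p = 6.44e-04). T13F3.6 fell, with log2 changes of −7.03 ± 0.41 in the libraries labelled met-1 RNAi (limma, adjusted p = 6.30e-04) and −7.18 ± 0.41 in L4440 libraries (adjusted p = 6.00e-04). T13F3.6 overlaps T13F3.8 in RefSeq, one of 20 member genes of 83 with a position whose span overlaps another protein-coding gene. How strand was treated is not given, and overlap of exons was not examined. Reads of such pairs may therefore be mixed in part, to an extent that is not known.

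The most abundant member over the 8 libraries was D1086.3, with 62.2 and 36.9 FPKM at day 12, against 1922 and 1792 FPKM at day 2, in the libraries labelled met-1 RNAi, and 61.2 and 54.6 FPKM, against 2236 and 2049 FPKM, in L4440 libraries. Its log2 changes were −5.74 ± 0.23 in the libraries labelled met-1 RNAi (limma, adjusted p = 3.30e-04) and −5.71 ± 0.23 in L4440 libraries (adjusted p = 3.01e-04). W01A11.1 had 101.39 and 91.6 FPKM at day 12, against 1714 and 1033 FPKM at day 2, in the libraries labelled met-1 RNAi, and 74.2 and 130.0 FPKM, against 1583 and 1216 FPKM, in L4440 libraries. It fell, with log2 changes of −4.26 ± 0.34 in the libraries labelled met-1 RNAi (limma, adjusted p = 0.00122) and −4.33 ± 0.34 in L4440 libraries (adjusted p = 0.00134). F18E3.12 had 25.0 and 19.1 FPKM at day 12, against 540.24 and 490.96 FPKM at day 2, in the libraries labelled met-1 RNAi, and 17.1 and 12.6 FPKM, against 616.25 and 727.87 FPKM, in L4440 libraries, and fell, with log2 changes of −4.99 ± 0.21 in the libraries labelled met-1 RNAi (limma, adjusted p = 3.30e-04) and −5.94 ± 0.21 in L4440 libraries (adjusted p = 2.76e-04). In none of these genes did the ages overlap.

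F54D5.4, the member with the highest level in old untreated animals, had 99.5 and 101.03 FPKM at day 12, against 709.66 and 815.29 FPKM at day 2, in the libraries labelled met-1 RNAi. In L4440 libraries it had 275.33 and 230.01 FPKM at day 12, against 934.53 and 1299 FPKM at day 2. Both ages of the libraries labelled met-1 RNAi lay below the same age of the L4440 libraries, and the age changes were −3.40 ± 0.21 in the libraries labelled met-1 RNAi (limma, adjusted p = 7.21e-04) and −2.65 ± 0.21 in L4440 libraries (adjusted p = 0.00135). Y47G6A.33 had 103.47 and 56.2 FPKM at day 12, against 699.00 and 593.61 FPKM at day 2, in the libraries labelled met-1 RNAi, and 99.3 and 116.89 FPKM, against 677.68 and 658.01 FPKM, in L4440 libraries, with age changes of −3.55 ± 0.28 in the libraries labelled met-1 RNAi (limma, adjusted p = 0.00110) and −3.15 ± 0.28 in L4440 libraries (adjusted p = 0.00170).

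Where a gene had several transcripts, the level of one of them depended on how reads were shared out. K12H4.7 NM_066357 had 13.7 and 35.1 FPKM at day 12, against 316.38 and 475.77 FPKM at day 2, in the libraries labelled met-1 RNAi, and 13.5 and 22.7 FPKM, against 421.02 and 636.80 FPKM, in L4440 libraries, and fell, with log2 changes of −4.57 in the libraries labelled met-1 RNAi (limma, adjusted p = 0.00343) and −5.33 in L4440 libraries (adjusted p = 0.00235). The other transcript of K12H4.7, NM_066358, fell, with log2 changes of −3.31 in the libraries labelled met-1 RNAi (limma, adjusted p = 0.0224) and −3.26 in L4440 libraries (adjusted p = 0.0249). C24B9.3 NM_001028500 had 15.0 and 33.5 FPKM at day 12, against 211.82 and 179.95 FPKM at day 2, in the libraries labelled met-1 RNAi, and 22.2 and 23 FPKM, against 322.45 and 298.70 FPKM, in L4440 libraries, and fell, with log2 changes of −3.55 in the libraries labelled met-1 RNAi (limma, adjusted p = 0.00223) and −4.25 in L4440 libraries (adjusted p = 0.00153).

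drd-1 (F49E12.9), another gene named for falling under dietary restriction, shows the effect of that sharing. Its transcript NM_063362 was listed at 0.0479 and 0.0103 FPKM at day 12, against 15.6 and 6.88 FPKM at day 2, in the libraries labelled met-1 RNAi, and at 0.0137 and 0.0486 FPKM, against 0.00454 and 17.0 FPKM, in L4440 libraries, and it was not called in either arm (limma, adjusted p = 0.0885 in the libraries labelled met-1 RNAi and 0.237 in L4440 libraries). Summed over all 3 of its transcripts, drd-1 had 3.42 and 5.00 FPKM at day 12, against 68.0 and 42.6 FPKM at day 2, in the libraries labelled met-1 RNAi, and 10.6 and 6.65 FPKM, against 94.1 and 56.1 FPKM, in L4440 libraries. In a fit on such sums, chosen after seeing the data, drd-1 fell, with log2 changes of −3.92 ± 0.38 in the libraries labelled met-1 RNAi (limma, adjusted p = 0.00149) and −3.51 ± 0.38 in L4440 libraries (adjusted p = 0.00237). In the same fit, 70 of the 76 tested genes of the set fell in the libraries labelled met-1 RNAi (14.8% of all 16472 genes tested) and 72 in L4440 libraries (14.6% of all).

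**Figure D2:**
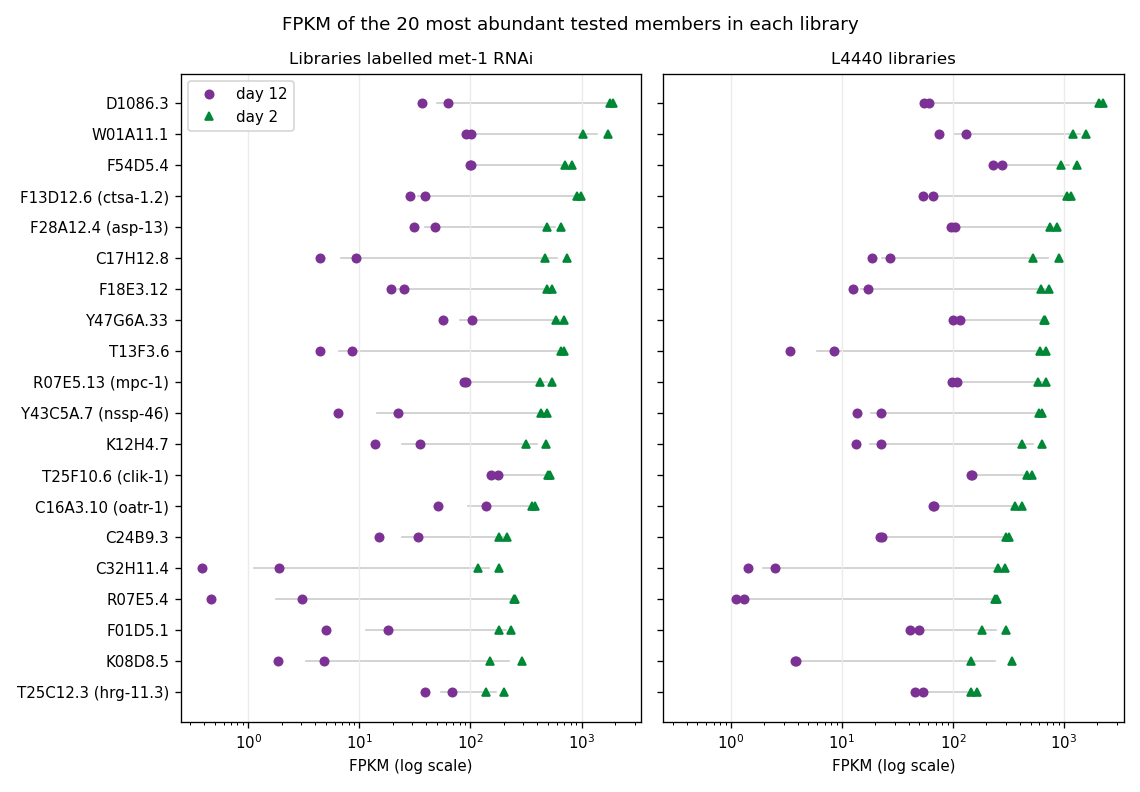
FPKM on a log scale in each library of the 20 tested members with the highest mean level, in the libraries labelled met-1 RNAi (left) and the L4440 libraries (right); circles are the 2 day 12 libraries, triangles the 2 day 2 libraries, and grey lines join the means of the 2 ages. Both circles lie left of both triangles for every gene in both panels, from a wide gap in T13F3.6 and R07E5.4 to a narrow one in T25F10.6 (clik-1) and T25C12.3 (hrg-11.3).

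Further members, from T05E12.6 to Y16B4A.2 by size, passed the test in both arms. T05E12.6 had 2.01 and 0.734 FPKM at day 12, against 112.64 and 90.6 FPKM at day 2, in the libraries labelled met-1 RNAi, and 1.90 and 0.188 FPKM, against 139.50 and 126.11 FPKM, in L4440 libraries. Its log2 changes, −5.97 in the libraries labelled met-1 RNAi and −6.70 in L4440 libraries, were the steepest of this remainder. Y16B4A.2 had 8.70 and 15.6 FPKM at day 12, against 24.1 and 21.6 FPKM at day 2, in the libraries labelled met-1 RNAi, and 13.3 and 12.8 FPKM, against 26.5 and 17.7 FPKM, in L4440 libraries. It had the smallest change that passed, −1.40 in the libraries labelled met-1 RNAi (limma, adjusted p = 0.0291) and −1.22 in L4440 libraries (adjusted p = 0.0475), and its ages came close to each other without overlap. Between these lay pugs-8 (T28D6.3), C05D12.3, spig-17 (F40H3.2), T07D3.9, C35A5.3, Y51H4A.5, K10C2.8, F58B6.1, C35A11.4, W10C8.5, C52D10.3, T16G12.1, F22H10.6, T23E7.2, let-383 (T21G5.6), F40A3.6, T05C3.6, T10G3.3, C07D8.6 and Y7A5A.1. let-383, named for a lethal mutation, had 9.20 and 17.4 FPKM at day 12, against 105.51 and 130.91 FPKM at day 2, in the libraries labelled met-1 RNAi, and 5.16 and 6.11 FPKM, against 177.84 and 188.51 FPKM, in L4440 libraries. Its libraries labelled met-1 RNAi were higher than the L4440 libraries at day 12 and lower at day 2, and the difference in age change, 1.72 ± 0.44, did not pass the test (limma, adjusted p = 0.557).

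The transcripts that did not pass the test were few. In both arms these were bcf-1 (F57F4.4, named for bacterial colonization), C25A8.1, F36D1.12, K10D11.2, drd-1 NM_063362 and ZK228.4 NM_075214. K08D8.4 was a further one in L4440 libraries, and H39E20.1, C40H1.7 and ZK896.5 were further ones in the libraries labelled met-1 RNAi. bcf-1 had 5.47 and 36.2 FPKM at day 12, against 33.3 and 90.6 FPKM at day 2, in the libraries labelled met-1 RNAi, and 10.5 and 13.4 FPKM, against 45.9 and 62.2 FPKM, in L4440 libraries. The L4440 ages did not overlap and the ages labelled met-1 RNAi did, and the adjusted p was 0.128 in the libraries labelled met-1 RNAi and 0.104 in L4440 libraries (limma).

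C25A8.1 was the one member whose fitted change was above 0 in both arms. It had 20.2 and 26.2 FPKM at day 12, against 22 and 0 FPKM at day 2, in the libraries labelled met-1 RNAi, and 0 and 73.8 FPKM, against 0 and 0 FPKM, in L4440 libraries. The libraries of one group were at 0 and far above it, and the log2 changes of 1.84 ± 2.27 in the libraries labelled met-1 RNAi (limma, adjusted p = 0.635) and 2.59 ± 2.27 in L4440 libraries (adjusted p = 0.489) did not pass the test. Without the second L4440 day 12 library the L4440 value was −0.52, and without the second day 2 library labelled met-1 RNAi the value of that arm was −0.42. The pooled tables listed C25A8.1 at 0 at day 12 in both genotypes, and at 27.8 FPKM in met-1 mutants and 26.2 FPKM in controls at day 2.

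The chromosome shares of the member transcripts differed from those of all rows of the isoform table. The shares among the cosmid-named rows alone, from which the members came, are not given here. A gene with several member transcripts counts more than once in these shares. Chromosome IV held 25 of the 90 (27.8%), where 15.3% of the rows of the isoform table with a position lay, and chromosome I held 7 (7.78%), against 15.7% of those rows. Chromosome V held 23 (25.6%, against 20.6%), chromosomes II and X 13 each, and chromosome III 9. Of the 83 genes with a position in RefSeq, 15 (18.1%) lay within 10 kb of another member gene, whereas 263 of the 12534 other genes of the table (2.1%) lay within 10 kb of a member. The 15 formed 6 groups. On chromosome IV these were K08D8.3 with K08D8.4, K08D8.5 and C32H11.4, F55G11.8 with F55G11.2 and K10D11.2, and F49F1.1 with F49F1.7. The others were F01D5.1 with F01D5.3 on chromosome II, and F35F10.5 with F35F10.6 and ZK228.3 with ZK228.4 on chromosome V.

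The groups of K08D8.3 and of F55G11.8 belong to one stretch of chromosome IV from ZK896.5 to K10D11.2, with 34 genes, 8 of them members. Genes of this stretch include dod-17, dod-22 and dod-24, which were named for lying downstream of the insulin-regulated transcription factor DAF-16, and irg-6, named as an infection response gene. Of the 8 member transcripts, 6 fell in the libraries labelled met-1 RNAi, with a median log2 change of −3.06, and 6 fell in L4440 libraries, with a median of −3.81. Of the 23 other transcripts of the stretch that were tested, 6 fell and 1 rose in the libraries labelled met-1 RNAi (median −0.47), and 3 fell and 1 rose in L4440 libraries (median −0.53). The members had been chosen for a steep fall in untreated animals, so the gap between the medians is no finding about the stretch. In those animals dod-24 (−5.13) and dod-17 (−4.81) passed the same threshold, and they count as others because the rule took cosmid names only. The members were thus mixed with neighbours that did not pass the test, and with some that fell, such as dod-17, which had 0.623 and 0.101 FPKM at day 12, against 9.83 and 26.6 FPKM at day 2, in the libraries labelled met-1 RNAi, and 1.54 and 1.42 FPKM, against 11.3 and 26.6 FPKM, in L4440 libraries.

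C32H11.4 had the steepest fall of the set in the untreated animals, with 1.92 FPKM at day 12 and 579.42 FPKM at day 2. It had 0.382 and 1.89 FPKM at day 12, against 116.29 and 179.50 FPKM at day 2, in the libraries labelled met-1 RNAi, and 1.42 and 2.52 FPKM, against 252.06 and 293.74 FPKM, in L4440 libraries. The ages did not overlap, with log2 changes of −6.68 ± 0.43 in the libraries labelled met-1 RNAi (limma, adjusted p = 7.47e-04) and −7.08 ± 0.43 in L4440 libraries (adjusted p = 7.07e-04). Its neighbour K08D8.5 had 1.84 and 4.77 FPKM at day 12, against 151.16 and 289.00 FPKM at day 2, in the libraries labelled met-1 RNAi, and 3.85 and 3.80 FPKM, against 144.84 and 338.34 FPKM, in L4440 libraries. It fell, with log2 changes of −6.19 ± 0.58 in the libraries labelled met-1 RNAi (limma, adjusted p = 0.00175) and −6.05 ± 0.58 in L4440 libraries (adjusted p = 0.00211).

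The young libraries were not even for these genes. All 8 members of the stretch were higher in the second than in the first day 2 library of both arms, as were 29 of the 78 tested members (37.2%) and 29.1% of all tested transcripts. C17H12.8, elsewhere on chromosome IV, showed the same, with 4.40 and 9.36 FPKM at day 12, against 473.59 and 733.80 FPKM at day 2, in the libraries labelled met-1 RNAi, and 27.0 and 18.6 FPKM, against 524.72 and 905.34 FPKM, in L4440 libraries. It fell, with log2 changes of −6.79 ± 0.46 in the libraries labelled met-1 RNAi (limma, adjusted p = 8.14e-04) and −5.41 ± 0.46 in L4440 libraries (adjusted p = 0.00161).

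**Figure D3:**
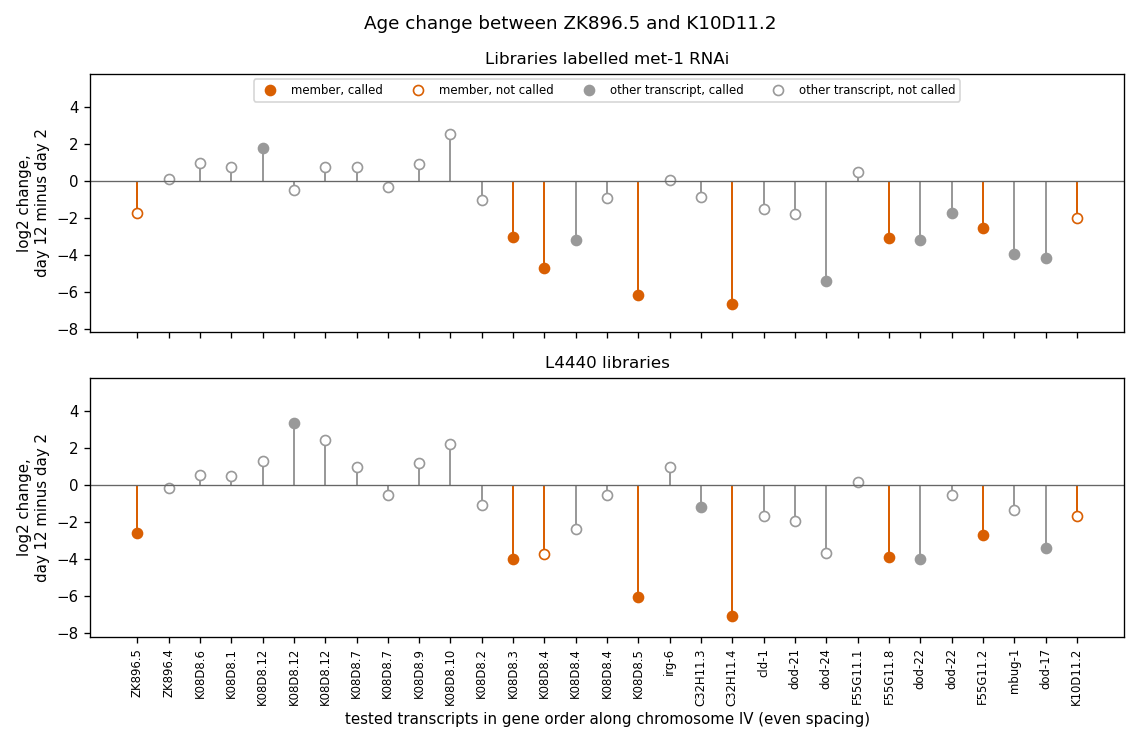
Log2 change of FPKM + 1, day 12 minus day 2, of the 31 tested transcripts of the chromosome IV stretch in gene order with even spacing, in the libraries labelled met-1 RNAi (top) and the L4440 libraries (bottom); members are orange, other transcripts grey, and filled circles passed the test (limma, adjusted p below 0.05). C32H11.4 and K08D8.5 have the lowest values in both panels, and transcripts from ZK896.4 to K08D8.10 lie mostly near or above 0.

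Other neighbouring pairs fell side by side. F01D5.1 had 5.00 and 18.0 FPKM at day 12, against 180.90 and 233.11 FPKM at day 2, in the libraries labelled met-1 RNAi, and 40.8 and 49.9 FPKM, against 184.31 and 302.36 FPKM, in L4440 libraries, and fell, with log2 changes of −4.76 ± 0.58 in the libraries labelled met-1 RNAi (limma, adjusted p = 0.00393) and −2.89 ± 0.58 in L4440 libraries (adjusted p = 0.0216). The L4440 call of F01D5.1 was lost without any one of the 4 L4440 libraries (adjusted p = 0.0534 to 0.103). F01D5.3 fell, with log2 changes of −4.24 in the libraries labelled met-1 RNAi (limma, adjusted p = 0.00284) and −4.27 in L4440 libraries (adjusted p = 0.00304). On chromosome V, F35F10.5 fell, with log2 changes of −3.61 in the libraries labelled met-1 RNAi and −3.48 in L4440 libraries, and F35F10.6 with log2 changes of −3.16 in the libraries labelled met-1 RNAi and −3.33 in L4440 libraries (limma, adjusted p from 0.00152 to 0.00220).

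C55B7.3 lies next to acdh-1, a gene of short-chain acyl-CoA breakdown, in RefSeq. C55B7.3 had 0 FPKM in both day 12 libraries, against 11.9 and 9.56 FPKM at day 2, in the libraries labelled met-1 RNAi, and 0.283 and 0 FPKM, against 15.6 and 12.1 FPKM, in L4440 libraries, and passed the test in both arms (limma, adjusted p = 7.21e-04 in the libraries labelled met-1 RNAi and 6.78e-04 in L4440 libraries). acdh-1 NM_059470 had 1.07 and 1.08 FPKM at day 12, against 1620 and 1221 FPKM at day 2, in the libraries labelled met-1 RNAi, and 1.46 and 3.46 FPKM, against 2148 and 1748 FPKM, in L4440 libraries, so that both genes were low at day 12.

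The pooled tables of the second set of animals gave the same direction for almost every member. In met-1 mutants 77 of the 78 were lower at day 12 than at day 2 past a fold of 2, as were 17.7% of all transcripts measured, and 57 were lower past a fold of 8 (2.44% of all). In controls all 78 were lower past a fold of 2 (15.6% of all), and 66 past a fold of 8 (2.17% of all). The median log2 change was −3.58 in met-1 mutants and −3.51 in controls. None was higher past a fold of 2 in either genotype, against 17.1% of all transcripts in met-1 mutants and 14.1% in controls. With 1 pooled value per age these changes have no replicate check. Among the examples above, R07E5.4 had 2.44 FPKM at day 12 and 334.36 FPKM at day 2 in met-1 mutants, and 0.334 FPKM at day 12 and 285.43 FPKM at day 2 in controls. T13F3.6 had 5.09 FPKM at day 12 and 907.84 FPKM at day 2 in met-1 mutants, and 6.88 FPKM at day 12 and 1095 FPKM at day 2 in controls. clik-1 had 84.0 FPKM at day 12 and 1160 FPKM at day 2 in met-1 mutants, and 77.0 FPKM at day 12 and 950.70 FPKM at day 2 in controls. These are steeper falls for clik-1 than in the RNAi arms, with log2 changes of −3.76 in mutants and −3.61 in controls. The tables were scaled separately.

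No member differed between the RNAi arms past the test. The change with age differed in 0 of 78 (0.108% of all tested were lower and 0.264% higher), with 3 lower and 7 higher in the libraries labelled met-1 RNAi at an unadjusted p below 0.05 (2.35% and 3.34% of all tested). At day 2, 0 of 78 differed (0.0754% of all in each direction), with 5 lower and 0 higher in the libraries labelled met-1 RNAi at an unadjusted p below 0.05 (1.97% and 1.5% of all tested). At day 12, 0 of 78 differed (0.194% lower and 0.307% higher), with 8 lower and 6 higher at an unadjusted p below 0.05 (5.09% and 5.24% of all tested). The median difference between the arms, libraries labelled met-1 RNAi minus L4440, was −0.20 at day 2 (−0.04 over all tested) and −0.01 at day 12 (0.02 over all tested).

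The smallest p-value between the arms at day 2 was that of H39E20.1, named here after its values were seen. It was listed at 0 in both day 12 and both day 2 libraries labelled met-1 RNAi, whereas the L4440 libraries had 0 and 0 FPKM at day 12 and 6.97 and 14.3 FPKM at day 2. In the pooled tables it had 4.07 FPKM at day 12 and 6.48 FPKM at day 2 in met-1 mutants, and 4.13 FPKM at day 12 and 24.0 FPKM at day 2 in controls. Its day 2 difference between the arms had an adjusted p of 0.0571, and its difference in age change one of 0.123 (limma). It was thus just outside the threshold at day 2. Under 4 other settings it was inside, with an adjusted p of 0.0258 to 0.0432 (limma) and log2 differences of −3.70 to −3.50. It reached 1 FPKM in the L4440 day 2 libraries only, and so entered the test through a group that is itself compared. Its p-values by arm and by age are therefore no separate support for a difference. H39E20.1 was also the exception in met-1 mutants, with an age change of −0.55 on the log2 scale, against −2.29 in controls. At levels this low, a value of 0 in an FPKM table does not show that the gene was silent.

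At day 12 the smallest p-values between the arms belonged to F54D5.4 and asp-13, also named for this after their values were seen. F54D5.4, whose values are given above, was lower in the libraries labelled met-1 RNAi by a log2 difference of −1.33 ± 0.21 (limma, adjusted p = 0.114), and asp-13 by −1.36 ± 0.25 (adjusted p = 0.159). For both genes the libraries labelled met-1 RNAi lay below the L4440 libraries at day 12, without overlap. In the pooled tables, asp-13 had 25.0 FPKM in met-1 mutants and 79.9 FPKM in controls at day 12, a log2 difference of −1.64, and F54D5.4 had 228.00 FPKM in met-1 mutants and 361.46 FPKM in controls, a difference of −0.66.

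Between the genotypes, without a test, 11 of the 78 members were lower in met-1 mutants than in controls at day 2 past a fold of 2 (4.39% of all transcripts measured) and 3 were higher (11.2% of all). The median log2 difference was −0.25, against 0.17 over all transcripts. After centring on the median transcript, 17 were lower (5.55% of all) and 2 were higher (8.62% of all). Of 64 hyphen-named transcripts with the same fall in untreated animals, 12 were lower and 2 higher past a fold of 2 as deposited. The lower level is therefore not read as particular to the cosmid-named set. C32H11.4 had 125.31 FPKM in met-1 mutants and 644.26 FPKM in controls, C17H12.8 301.52 FPKM in mutants and 1157 FPKM in controls, and F44A2.7 2.83 FPKM in mutants and 18.9 FPKM in controls, with log2 differences of −2.35, −1.94 and −2.38. These were the lowest differences. The others of the 11, as deposited, were H25K10.1, H39E20.1, E04F6.15, K08D8.5, W01A11.1, F55G11.2, E02H4.7 and ZK896.5, from −1.81 to −1.10. Of the 11, 6 were among the 16 tested members of chromosome IV and 5 among the 62 of other chromosomes. C32H11.4, K08D8.5, F55G11.2 and ZK896.5 of these lie in the stretch described above. The same split over all transcripts is not given here, so no difference between chromosomes is read from these counts.

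The 3 that were higher in met-1 mutants at day 2 were C09B8.4 with 69.6 FPKM in mutants and 9.49 FPKM in controls, F36D1.12 with 44.7 FPKM in mutants and 16.8 FPKM in controls, and C05C10.3 with 410.08 FPKM in mutants and 191.47 FPKM in controls. C09B8.4 went the other way between the RNAi arms at day 2, with 17.9 and 11.1 FPKM in the libraries labelled met-1 RNAi and 28.7 and 20.5 FPKM in L4440 libraries, which did not pass the test (limma, log2 difference −0.79 ± 0.31, adjusted p = 1). For C32H11.4 and C17H12.8 the day 2 differences between the arms were −0.95 and −0.27 and did not pass it either. The unevenness of the young RNAi libraries given above, for members of the chromosome IV stretch and C17H12.8, cannot be looked at in the pooled tables. Its part in the difference between genotypes was not tested.

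**Figure D4:**
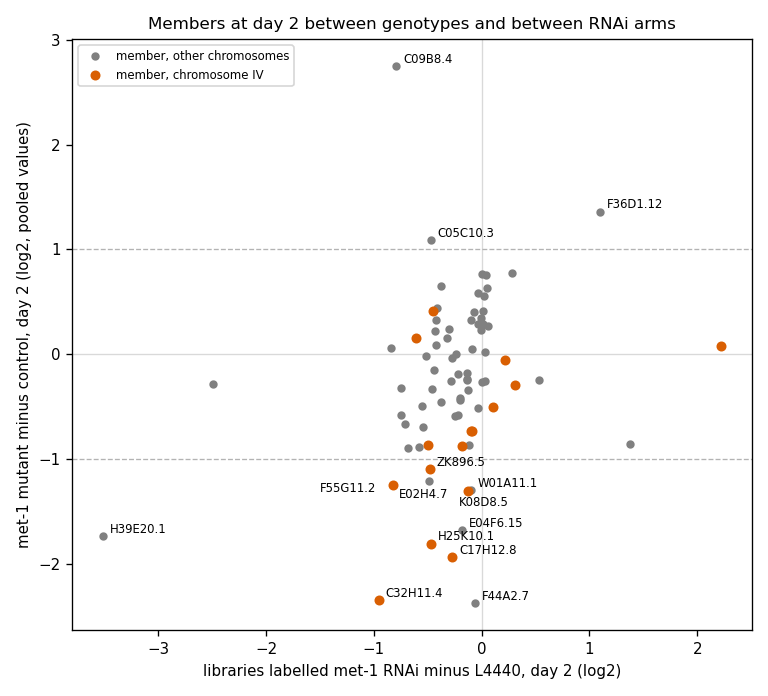
Log2 difference of FPKM + 1 at day 2 of the 78 tested members: met-1 mutants minus controls (vertical axis, pooled values with no replicates) against libraries labelled met-1 RNAi minus L4440 libraries (horizontal axis, centred libraries); orange points are members of chromosome IV, dashed lines mark a fold of 2 and points beyond them are named. The 11 members below the lower line include 6 of chromosome IV, and most points lie within 1 of 0 on the horizontal axis, with H39E20.1 at −3.51.

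At day 12, 70 members reached 1 FPKM in one of the genotypes. Of these, 6 were lower in met-1 mutants past a fold of 2 (4.76% of all transcripts measured) and 4 were higher (10.8% of all), with a median difference of −0.20, against 0.18 over all transcripts. After centring on the median transcript, 10 were lower (6.11% of all) and 2 were higher (8.59% of all). Of 58 hyphen-named transcripts with the same fall in untreated animals, 12 were lower and 1 higher past a fold of 2 as deposited. The largest difference among the members was that of R13H4.2, with 0.431 FPKM in met-1 mutants and 14.0 FPKM in controls for the member transcript. Summed over the 5 transcripts of that gene, the level was 53.3 FPKM in met-1 mutants and 56.9 FPKM in controls, so that the difference was within the gene. C53B7.6 followed, with 0 FPKM in met-1 mutants and 8.64 FPKM in controls, and it was at 0 in all 4 day 12 libraries of the RNAi table. R07E5.4 and F35F10.5 were higher in met-1 mutants, with 2.44 FPKM in mutants and 0.334 FPKM in controls for R07E5.4, and 4.32 FPKM in mutants and 0.982 FPKM in controls for F35F10.5.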

How the data were processed

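Poly-A mRNA of whole animals was sequenced in 20 libraries, and 12 chromatin samples were not analysed here. FPKM values were deposited by the authors in 4 tables, per the file headers for 3 of them. The RNAi table names no unit and was taken as FPKM. Its day 2 L4440 values followed those of the deposited control table (Pearson r = 0.940 across 7712 transcripts, which are not independent replicates; median log2 difference −0.136). The log2 fold change and the q-value (p-values adjusted by a test not given in the sources used here) of the isoform table were deposited by the authors, per the file headers. Per the submitters' processing notes, the tools were Cuffdiff, TopHat, TopHat2, BWA and CASAVA 1.8, whose roles are not stated. The sources used here do not give build, annotation, strand or scaling, so no coordinates are printed.

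The members and lists were chosen with earlier results of these data known. Samples were grouped by their labels. Of 46971 transcripts, 18572 were tested on log2(FPKM + 1) (pseudocount 1) in limma 3.58.1 (R 4.3.3), with trend, 4 groups of 2 libraries in one fit and Benjamini-Hochberg adjustment. No 2 libraries were identical. On simulated data with the same transcripts for the age change in L4440, the fit called 84.0% of transcripts lowered by 3 and 21.0% of those lowered by 1 on the log2 scale. The lowered transcripts were drawn from those with a mean log2(FPKM + 1) above 4, so these rates do not cover lower ones. Pooled values were called past a fold of 2, age changes after centring on the median transcript. Absolute depth is unknown, since FPKM gives relative depth only, so no counting intervals are given. Values per library are given for the 20 tested members with the highest mean, for members above 0, at the threshold or not tested, and for further ones chosen for their role or after seeing their values. Alternatives were other scalings, pseudocounts, filters and spread estimates, a replicate block, leaving out each library, other folds, and sums over a gene's transcripts. The libraries were not paired by the numbers of their labels in the main fit.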

Additional observations from a re-analysis of the deposited data

How the results depend on the processing

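With a filter on level and all libraries kept, 67 to 70 members fell in the libraries labelled met-1 RNAi and 69 to 72 in L4440 libraries. These are of 78 transcripts, or of 76 genes for sums over transcripts. With no filter, 76 and 77 of 81 members fell, but most calls over all transcripts in that setting came with the centring described below. Leaving out a library of the arm itself lowered the count. With any library left out, the median log2 change of the members was −3.37 to −3.17 in the libraries labelled met-1 RNAi and −3.65 to −3.50 in L4440 libraries. Same-numbered libraries deviated together little over all transcripts (correlations of −0.06 to 0.13), and across the members the correlations ran from −0.58 to 0.31. These values do not exclude a shared deviation of some genes, since all 8 members of the chromosome IV stretch were higher in the second day 2 library of both arms. With the replicate number as a block 69 and 71 members fell, as without it. Between the arms at day 2, 1 member (H39E20.1) passed in place of 0 under some settings. These were quantile normalization, equal summed FPKM, a fit with no trend and, chosen after seeing the data, sums over a gene's transcripts. H39E20.1 could be tested only through its L4440 day 2 libraries, as given above. At day 12, 1 passed under quantile normalization, F54D5.4, which was lower in the libraries labelled met-1 RNAi (log2 difference −1.36). Without the first L4440 day 12 library, R13H4.2 was higher in the libraries labelled met-1 RNAi by 1.33. The same transcript was lower in met-1 mutants than in controls at day 12 (−3.39), the opposite direction. The number differing in age change stayed at 0 in every setting run. In met-1 mutants against controls at day 2, 17 members were lower after centring and 0 at a fold of 8, and 0 were higher at a fold of 8. At day 12, 10 were lower after centring and 2 at a fold of 8, and 2 were higher after centring, 7 with a pseudocount of 0.1 and 0 at a fold of 8. With one library left out, the age change of C25A8.1 ran from −0.42 (without the second day 2 library labelled met-1 RNAi) to 4.08 in the libraries labelled met-1 RNAi, and from −0.52 (without the second L4440 day 12 library) to 5.70 in L4440 libraries. Over all transcripts, calls with age numbered 3841 in the libraries labelled met-1 RNAi and 3470 in L4440 libraries, 5835 and 5545 with values as deposited, and 28079 and 28255 with no filter, where transcripts at 0 in all libraries take up the centring. Without one library of the arm itself they fell to as few as 1777 and 2020. Depth limits members near 1 FPKM, and the second L4440 day 12 library had a relative read number of 0.355, the lowest.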
